A study of Mus musculus with 19 samples.

Results

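The 10 genes described here lie on mouse chromosome 17 more than 1 Mb from Pkd1, and their RNA level separated Pkd1 genotypes in liver. They are Dynlt1b, Tmem181b-ps, Ezr, 9030025P20Rik, Tmem8, Hmga1, Btbd9, Gtf2h4, Ddr1 and Gm8909. They were chosen by symbol from the same libraries, on the genotype differences themselves. The differences between genotypes below are therefore a description, and no test of them is given as support. The 10 genes are among 35976 rows of the deposited count table, of which 16463 passed a filter on low counts, 788 of these on chromosome 17 and 713 of those more than 1 Mb from Pkd1. All 10 passed the filter.

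The libraries are 1 per mouse, from the livers of 7 WT, 6 Het and 6 Homo mice. These names are the labelled genotypes at Pkd1, the gene of polycystin-1, which is mutated in most cases of autosomal dominant polycystic kidney disease. Every mouse, WT included, received AAV-Cre, an adeno-associated virus that delivers the recombinase Cre, and was kept for 3 months on Western Diet plus carbon tetrachloride (CCl4), a liver toxin, as a model of steatohepatitis. The design text calls the mice littermates, and the labels give no age, sex, litter or batch, nor which stretch of Pkd1 is mutated, so whole-gene counts of Pkd1 check nothing. The number at the end of each sample title serves as the mouse number, and its meaning is not given. WT mice are numbered from 1 to 13, Het mice from 4 to 20 and Homo mice from 8 to 18. Number and genotype thus partly go together, and their effects cannot be fully told apart.

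Genes on the same chromosome are inherited together except where recombination separates them, and neighbours part less often than distant genes. A gene whose level follows the number of copies of an allele lies between both homozygotes in a heterozygote, whereas a gene that changes only when both copies are of 1 kind is alike in WT and heterozygote. Chromosome 17 of the mouse carries, besides Pkd1, the H2 complex, which holds the class I and class II antigen presentation genes, and near its start several gene families with nearly identical copies. In these mice, what follows from the Pkd1 genotype and what follows from other alleles of the same chromosome cannot be told apart by genotype alone.

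Each library held between 25.8 and 42.1 M counts, and levels are given as CPM, counts scaled to library size after correction for library composition. The liver marker Alb was abundant in every genotype, and no marker list of hepatocytes, macrophages, stellate, endothelial, B or proliferating cells held a called gene. The bile duct list held 3 of 11 tested genes called in Homo against WT, all higher. In whole liver, fewer cells of a type and less RNA per cell cannot be told apart.

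Several of the 10 genes have near-identical copies elsewhere, and a pair of sequences is shown because such copies set how far a count can be assigned to a gene. The coding sequence of Dynlt1b, a light chain of the motor protein dynein, has 339 bases and differs at 1 of them from that of each of Dynlt1a, Dynlt1c and Dynlt1f (GENCODE M21, GRCm38). The first 60 coding bases hold that difference, A21C counted from the first coding base of Dynlt1b, in capitals here.

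Dynlt1b: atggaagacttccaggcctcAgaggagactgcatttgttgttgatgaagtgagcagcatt

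Dynlt1a: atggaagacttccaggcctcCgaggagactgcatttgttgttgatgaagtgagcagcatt

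Of all stretches of 50 bases in each gene's transcripts, other genes' transcripts also held 83.2% for Dynlt1b, 68.7% for 9030025P20Rik (mostly shared with Ermard), 55.0% for Hmga1, 50.8% for Tmem181b-ps (mostly with Tmem181a) and 26.4% for Gm8909. The share was 7.72% for Btbd9, 3.42% for Ddr1, 0.185% for Ezr and 0 for Tmem8 and Gtf2h4. How the authors counted reads that match several places is not given in the sources used here, so the first 5 genes carry values that are uncertain in this respect. Ezr, Tmem8, Gtf2h4, Ddr1 and Btbd9 rest on mostly unshared sequence. Exonic overlaps of more than 100 bases with a gene on the opposite strand were 385 in Gm8909, 235 in 9030025P20Rik, 216 in Ddr1, 189 in Btbd9 and 102 in Hmga1. The strand setting of the counting is not given, and without strand reads from such bases cannot be told apart.

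All 10 genes lie in the first 37 Mb of the chromosome (GRCm38, RefSeq). Below Pkd1 come Dynlt1b (chr17:6429530-6440500, plus strand), Tmem181b-ps (chr17:6439002-6450994, minus), Ezr (chr17:6738131-6782780, minus) and 9030025P20Rik (chr17:14978864-14991577, plus), from 18.1 to 9.56 Mb away. Above Pkd1 come Tmem8, named Pgap6 in RefSeq (chr17:26112752-26123254, plus), Hmga1 (chr17:27556574-27563672, plus), Btbd9 (chr17:30215524-30582621, minus), Gtf2h4 (chr17:35667728-35673750, minus), Ddr1 (chr17:35681567-35704741, minus) and Gm8909 (chr17:36143812-36168602, minus), from 1.52 to 11.5 Mb away. Tmem8, at 1.52 Mb, is the member nearest to Pkd1.

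In the comparison of Homo with WT, 9 of the 10 genes passed edgeR's quasi-likelihood test at an adjusted p under 0.05, a share to be read beside 0.48% of all 16463 tested genes; since the genes were chosen on this contrast, nothing is read from it. Of the 9, 6 were higher in Homo (0.292% of tested genes were) and Hmga1, Tmem8 and Gtf2h4 were lower (0.188%). Dynlt1b, the member that did not pass, had an adjusted p of 0.0549 in edgeR, and Tmem181b-ps, the member nearest to the threshold among those that passed, 0.0420. Over the 19 fits that each left out 1 mouse, the call was lost in 14 for Tmem181b-ps (adjusted p up to 0.117 in edgeR), 11 for Gm8909, 10 for 9030025P20Rik, 6 for Ddr1 and 2 for Btbd9, and in 0 for Hmga1, Tmem8, Gtf2h4 and Ezr. Away from Pkd1 by more than 1 Mb, 17 genes of the chromosome passed, 2.38% of those tested, against 13.3% within 1 Mb and 0.331% on other chromosomes. The 8 that are not among the 10 are Park2, Mrpl18, Chd1, Zfp943, Ergic1, Glo1, Dnah8 and H2-T24. Every called gene of chromosome 17 starts before 40 Mb. Called were 2 of 38 tested genes from 0 to 10 Mb and 4 of 51 from 10 to 20 Mb. Further along, 14 of 192 were called from 20 to 30 Mb, 7 of 191 from 30 to 40 Mb and 0 of 316 beyond. The count of 9 stood beside 79 calls over all tested genes. It was 4 of 38 calls with mouse number as a covariate and 3 of 25 without mice 1 to 3. It was 5 without WT replicate 1 or 3, 5 without Homo replicate 2, 3 or 6 and 4 without Homo replicate 4. Those fits called 35 to 54 genes in all. Among the 6 mice numbered 8 to 13, where Homo is mice 8 and 10, the count was 0, and 2 of 16662 tested genes were called. All 10 genes kept their direction there, but they were chosen on these same mice, so nothing is read from it.

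**Figure D1:**
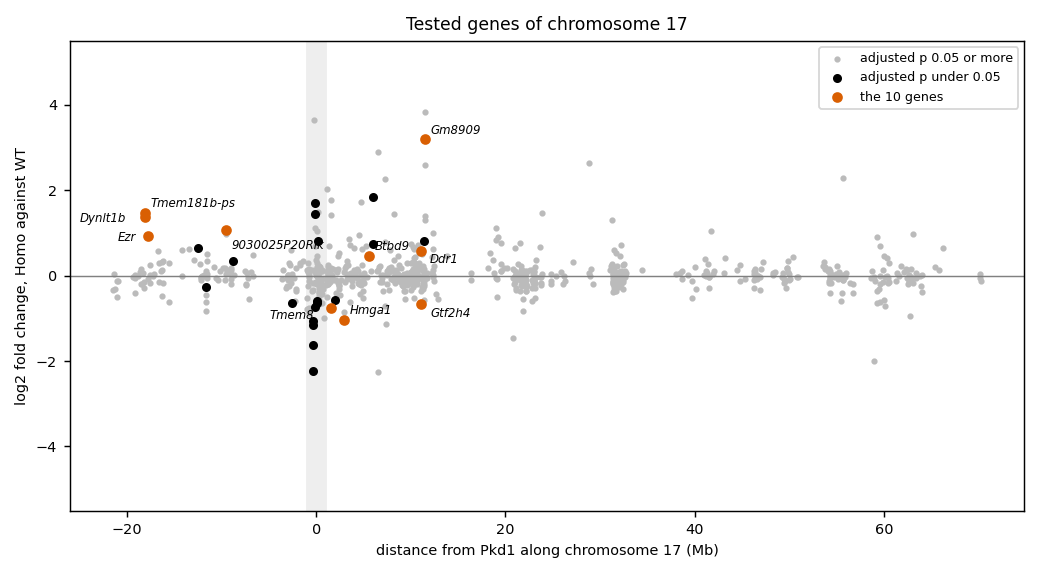
Log2 fold change of Homo against WT for each tested gene of chromosome 17, plotted against its distance from Pkd1 in Mb (grey band, within 1 Mb). The 10 genes (orange) and the other called genes (black) all lie within 20 Mb of Pkd1.

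Among the mice, WT mouse 12 (WT replicate 6) and Het mouse 4 (Het replicate 1) stood apart. Each mouse was placed on a scale on which 0 is the mean log2 CPM of WT and 1 that of Homo. WT mouse 12 lay past 0.5 at 4 of the 10 genes (Dynlt1b, Tmem181b-ps, 9030025P20Rik and Gm8909), and the other 6 WT mice at none. Het mouse 4 lay beyond the Homo mean at Dynlt1b (1.39) and 9030025P20Rik (1.45), but on the WT side of the WT mean at Hmga1, Btbd9, Gtf2h4, Ddr1 and Gm8909. It did not stand apart at Gtf2h4 (-0.06) and Ddr1 (-0.13). Het mouse 20 lay further to that side at Gtf2h4 (-0.24), and Het mice 6 and 7 at Ddr1 (-0.31 and -0.67). Each Het mouse, mouse 4 included, lay past 0.5 at 3 of the 10 genes. All 6 Homo mice lay past 0.5 at 9 or 10 genes.

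At Abca3, near Pkd1, both mice lay with their labelled groups. Abca3, a lipid transporter 0.138 Mb from Pkd1, was at 96.4 CPM in WT mouse 12, the highest of WT mice that started at 65.6. It was at 218 CPM in Het mouse 4, the highest of Het mice that started at 170, and Homo mice ranged from 241 to 292. Over the called genes of the chromosome and Dynlt1b, WT mouse 12 lay past 0.5 at 5 of 8 genes more than 1 Mb below Pkd1, at 0 of 10 within 1 Mb and at 4 of 10 more than 1 Mb above it. Het mouse 4 lay past 0.5 at 6 of 8 genes below, with a median place of 0.99, at 5 of 10 within 1 Mb (median 0.49) and at 0 of 10 above (median -0.06). The other 5 Het mice had medians between 0.23 and 0.66 in all 3 stretches. These places were computed on genes chosen for differing between the genotypes, so they describe the mice and test nothing; the cause was not tested.

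**Figure D2:**
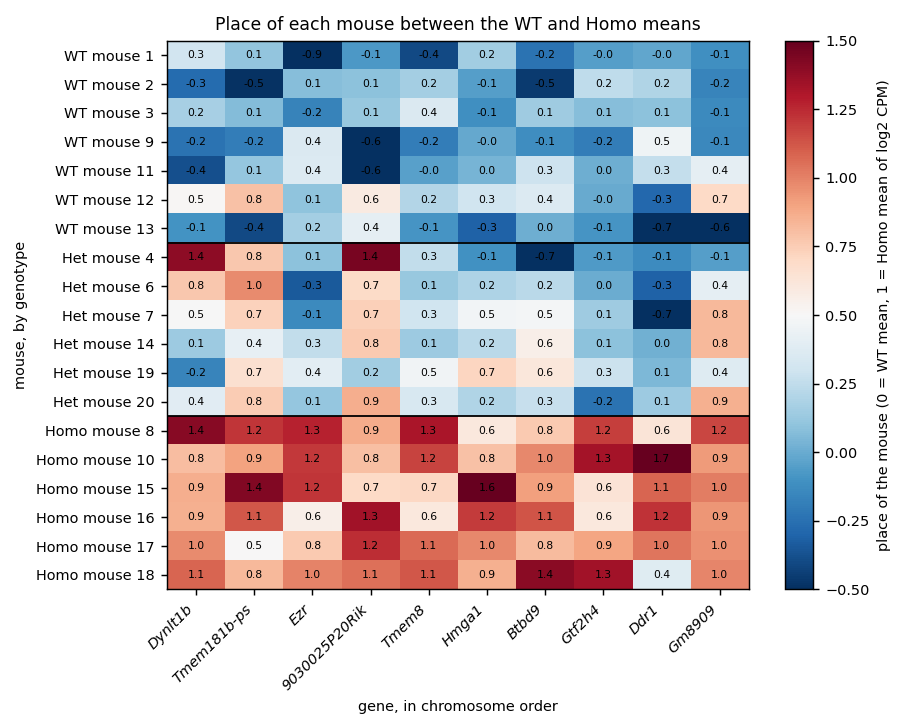
Place of each mouse (vertical, by genotype) at each gene (horizontal, in chromosome order) between the mean log2 CPM of WT, at 0, and of Homo, at 1. WT mouse 12 is past 0.5 at 4 genes, and Het mouse 4 changes from 1.4 at Dynlt1b to -0.1 at Gm8909.

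Setting Het beside both homozygotes asks which genes follow the number of mutant alleles. The position of Het was classed by 95% intervals from 1 edgeR fit of all 19 libraries, each interval taken for its gene alone. A gene was called midway where Het differed from both WT and Homo and not from the point between them, and changed in Homo only where the interval of Het minus WT held 0 and that of Homo minus Het did not. It was called Het like Homo where the interval of Het minus WT excluded 0 and that of Homo minus Het held 0, which does not show that Het and Homo are equal. Homo only, in turn, does not show that Het and WT are equal. By this rule Gtf2h4, Ddr1, Ezr, Hmga1 and Btbd9 changed in Homo only, and Tmem8 and Gm8909 were midway. Dynlt1b, Tmem181b-ps and 9030025P20Rik were Het like Homo. At Hmga1 and Btbd9 the interval of Het minus the midpoint also held 0 (-0.04 to 0.49 and -0.27 to 0.05), so midway is not excluded there. The fitted Het value stood at 0.28 of the way from WT to Homo at Tmem8 and at Hmga1, and at 0.27 at Btbd9. Tmem8 was thus classed apart from those genes at nearly the same place. Its interval of Het minus WT, -0.42 to -0.01, narrowly excluded 0, and that of Hmga1, -0.59 to 0.02, narrowly held it. Without mice 4 and 12, which were picked from these values, Hmga1, Btbd9 and Dynlt1b became midway, so that 5 genes were midway, 3 changed in Homo only and 2 were Het like Homo.

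The counts of the classes differed with the side of Pkd1, but the classes do not exclude each other. For Dynlt1b, Tmem181b-ps and 9030025P20Rik, classed Het like Homo, the interval of Het minus the midpoint also held 0. It was -0.44 to 0.70, -0.30 to 0.85 and -0.08 to 0.74. Of the 8 distant genes below it (4 of the 10, with Park2, Mrpl18, Chd1 and Zfp943), 7 were Het like Homo and Ezr changed in Homo only. Of the 10 above it (6 of the 10, with Ergic1, Glo1, Dnah8 and H2-T24), 5 were midway, 5 changed in Homo only and 0 were Het like Homo. Without mice 4 and 12 the counts below were 3 midway, 4 Het like Homo and again Ezr in Homo only. Above they were 8 midway and 2 in Homo only, namely Gtf2h4 and Ddr1. The difference between the sides was not tested.

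**Figure D3:**
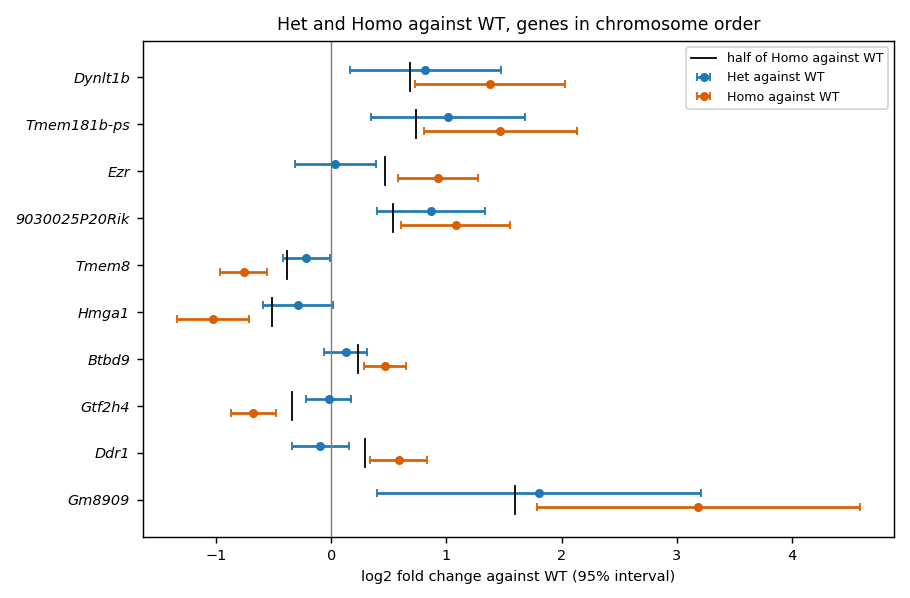
Log2 fold change against WT, with its 95% interval, of Het (blue) and Homo (orange) for each gene, and the point halfway to the Homo value (black line). At Gtf2h4, Ddr1 and Ezr the Het interval spans 0 and stays clear of the black line.

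Gtf2h4, Ddr1 and Ezr were the genes that changed in Homo only under each of the 26 alternatives for which the classes were computed. The 26 include the 19 fits that each left out 1 mouse, so they share most of their mice. Gtf2h4 is a subunit of TFIIH, the complex that opens DNA at the start of transcription and in nucleotide excision repair. Its lowest, median and highest levels were 11.0, 12.4 and 13.5 CPM in the 7 WT mice, 10.8, 12.1 and 13.8 in the 6 Het mice and 6.51, 7.53 and 9.24 in the 6 Homo mice. The WT and Het ranges nearly coincided, and all 6 Homo mice lay below every other mouse. In counts, Gtf2h4 had 297 to 546 in WT and Het libraries and 231 to 319 in Homo. On the log2 scale Homo minus WT was -0.67 ± 0.09 (SE), Homo minus Het -0.65 ± 0.10 and Het minus WT -0.02 ± 0.09. Homo livers held 0.627 of the WT mean.

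Of the 10 TFIIH genes tested, Gtf2h4 was the one called in Homo against WT and 0 were called higher. The fitted difference lay above 0 for 3 of the 10, and the median of the list was -0.15, beside 0.00 for all tested genes. Cdk7, its kinase, was at -0.33 ± 0.10 (adjusted p = 0.167 with edgeR), and Mnat1, a partner of that kinase, at -0.31 ± 0.13 (adjusted p = 0.317). Ercc2 and Ercc3, the helicases of the complex, were at 0.10 ± 0.12 each.

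Ddr1, a receptor tyrosine kinase of epithelial cells that binds collagen, is the next tested gene after Gtf2h4 on the map, 7.82 kb away, and differed in the other direction. Its lowest, median and highest levels were 11.9, 16.4 and 19.0 CPM in WT, 12.0, 15.5 and 16.7 in Het and 18.4, 24.2 and 30.8 in Homo. Homo mice 10 and 18 were the highest and the lowest, at 30.8 and 18.4 CPM. All 6 Homo mice lay above all 6 Het mice, while WT mouse 9, at 19.0, lay above Homo mouse 18. On the log2 scale Ddr1 stood at 0.59 ± 0.12 in Homo minus WT, 0.68 ± 0.12 in Homo minus Het and -0.09 ± 0.12 in Het minus WT. Het was off the point between WT and Homo by -0.39, with a 95% interval of -0.61 to -0.16. Ddr2, its relative of connective tissue cells, and 5 collagen genes measured beside it were not called: Ddr2 was at 0.18 ± 0.09 and Col1a1 at 0.17 ± 0.24.

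Ezr encodes ezrin, which ties actin filaments to the membrane of microvilli at the free surface of epithelial cells. Its lowest, median and highest levels were 2.22, 4.26 and 5.06 CPM in WT, 3.18, 4.27 and 5.19 in Het and 5.76, 8.26 and 9.20 in Homo. Every Homo mouse was above every WT and Het mouse, and WT mouse 1 was the lowest of all. The Homo mean was 1.90 times the WT mean. On the log2 scale Homo minus WT was 0.93 ± 0.17, Homo minus Het 0.89 ± 0.17 and Het minus WT 0.04 ± 0.17, the last turning to -0.16 without mice 1 to 3. Radixin and moesin, the other members of its family, were at 0.02 ± 0.06 (Rdx) and 0.00 ± 0.07 (Msn), and Ezr was the 1 gene called among 7 of its family and partners.

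Ezr and Ddr1 are genes of epithelia, and bile duct markers moved with them. The summed level of the 12 bile duct markers was 136 to 230 CPM in WT, 134 to 212 in Het and 204 to 273 in Homo, so that Homo overlapped both. Of the 11 tested, Krt7, Krt19 and Muc1 were called higher in Homo against WT and the list's median was 0.97, beside 0.00 for all genes; in Het against WT the median was -0.26 with none called. No row of the list was at 0 in all mice. The keratin Krt19 ranged from 0.293 to 2.99 CPM in WT, from 0.364 to 1.17 in Het and from 3.36 to 10.1 in Homo. Homo overlapped neither group, and the Het range lay within that of WT. WT mouse 12, with Krt19 at 1.01, and Het mouse 4, at 1.17, lay within their labelled groups. The part of bile duct cells in the values of Ezr and Ddr1 was not tested.

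Promoters of these 3 genes are shown because the interval of Het excluded the midpoint there: the 250 bases before a RefSeq transcript start (GRCm38.p6, minus strand, written 5′ to 3′), the most upstream of those listed, with matches on either strand in capitals to the GC box, GGGCGG, to the CCAAT box and to the TATA box, TATAAA.

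Gtf2h4, chr17:35673744-35673993: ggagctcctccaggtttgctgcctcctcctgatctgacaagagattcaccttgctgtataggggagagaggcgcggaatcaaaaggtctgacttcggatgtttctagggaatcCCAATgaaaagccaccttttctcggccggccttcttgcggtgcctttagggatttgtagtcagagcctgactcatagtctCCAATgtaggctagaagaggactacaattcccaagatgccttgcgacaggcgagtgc

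Ddr1, chr17:35704600-35704849: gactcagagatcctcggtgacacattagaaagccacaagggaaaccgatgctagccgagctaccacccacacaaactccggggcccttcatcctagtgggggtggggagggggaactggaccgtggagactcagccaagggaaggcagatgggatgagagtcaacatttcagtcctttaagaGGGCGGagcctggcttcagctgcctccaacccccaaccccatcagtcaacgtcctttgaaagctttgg

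Ezr, chr17:6782781-6783030: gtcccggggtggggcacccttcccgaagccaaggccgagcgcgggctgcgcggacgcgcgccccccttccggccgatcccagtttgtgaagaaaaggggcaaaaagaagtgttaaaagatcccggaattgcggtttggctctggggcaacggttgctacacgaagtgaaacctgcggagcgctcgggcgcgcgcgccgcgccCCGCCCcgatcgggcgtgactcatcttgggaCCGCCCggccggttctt

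These transcript starts are not always the outer end of the gene given above: 142 bases of the window of Ddr1 and 7 of that of Gtf2h4 lie inside the gene, and none of that of Ezr. The window of Gtf2h4 held CCAAT at 2 places and no GGGCGG, that of Ddr1 GGGCGG once, and that of Ezr GGGCGG at 2 places, both on the other strand; none held TATAAA. Of 32851 promoter windows of this length, 32.7% held GGGCGG, 33.8% CCAAT and 12.4% TATAAA. Guanine and cytosine made 52.0% of the Gtf2h4 window, 56.8% of that of Ddr1 and 67.2% of that of Ezr, beside a median of 52.4% over all windows. The 3 windows thus share no motif of those searched.

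Hmga1 and Btbd9 were classed as changed in Homo only with all mice and as midway without mice 4 and 12. Hmga1 encodes a chromatin protein that binds AT-rich DNA. Its lowest, median and highest levels were 39.7, 49.99 and 62.0 CPM in WT, 29.4, 42.3 and 53.5 in Het and 15.8, 25.4 and 31.8 in Homo. The lowest WT mouse was mouse 12, at 39.7, and the highest Het mouse was mouse 4, at 53.5. All 6 Homo mice lay below all 7 WT mice, and Het overlapped both. Homo minus WT was -1.03 ± 0.15 and Het minus WT -0.29 ± 0.15 on the log2 scale. Without those 2 mice the WT mice lay between 44.3 and 62.0 and the Het mice between 29.4 and 43.0 CPM, with no overlap. Het minus WT was then -0.43 ± 0.15. Those mice were picked from these values and are the extremes here, so leaving them out was bound to part the groups more.

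Btbd9 is an adaptor that brings proteins to the ubiquitin ligase of CUL3. Its lowest, median and highest levels were 29.1, 33.9 and 38.1 CPM in WT, 27.1, 38.2 and 41.3 in Het and 43.4, 46.0 and 53.4 in Homo. All Homo mice exceeded all others, the highest WT mouse was mouse 12 and the lowest Het mouse was mouse 4, at 27.1 against 36.4 CPM for the next. On the log2 scale Btbd9 was at 0.47 ± 0.09 in Homo minus WT and at 0.12 ± 0.09 in Het minus WT, and without mice 4 and 12 Het minus WT was 0.23 ± 0.07 and the Het place 0.46. Cul3 and Rbx1, which make up the ligase, were at 0.08 ± 0.08 and -0.05 ± 0.11 in Homo against WT. Glo1 and Dnah8, which lie close to Btbd9, were the 2 called among 71 tested neighbours of the 10 genes, both higher in Homo. The neighbours are 5 on each side, with the 10 genes left out. That is 2.82% of neighbours, beside 0.48% of all tested genes. The 2.38% of tested chromosome 17 genes more than 1 Mb from Pkd1 is not a like share, since it counts the 10 genes. There 17 of 713 were called, and 8 of the 17 are not among the 10. The median of the neighbours was 0.05, beside 0.00 for all genes.

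Tmem8 was midway in 14 of 26 alternatives, Homo only in 9 and between but off the midpoint in 3. It encodes a membrane enzyme that acts on GPI-anchored proteins. Its lowest, median and highest levels were 30.1, 37.2 and 44.9 CPM in WT, 28.5, 31.4 and 34.1 in Het and 18.1, 20.4 and 26.4 in Homo. All Homo mice lay below all others, and the 6 Het mice lay in or just below the lower part of the WT range. Homo minus WT was -0.76 ± 0.10, Het minus WT -0.22 ± 0.10 and Homo minus Het -0.54 ± 0.10 on the log2 scale, so that the fitted Het value stood at 0.28 of the way. Het mouse 4 and WT mouse 12 did not stand apart at Tmem8, at 31.7 and 32.6 CPM.

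Gm8909, a predicted gene among the class I genes of the H2 complex, had few counts and the largest fold. It had 171, 96, 108, 97, 110 and 134 counts in Homo mice 8, 10, 15, 16, 17 and 18. WT libraries had 0 in mouse 13, 4 or 5 in mice 1, 2, 3 and 9, 24 in mouse 11 and 48 in mouse 12. Het libraries had 5 in mouse 4, 20 and 21 in mice 6 and 19, and 53, 68 and 88 in mice 7, 14 and 20. Homo overlapped neither group, and Het spanned nearly the whole range below it. A count of 0 in mouse 13 allows up to 3 counts, for counting error only.

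WT mice averaged 0.371 ± 0.531 CPM of Gm8909 (SD, n = 7), Het mice 1.29 ± 0.917 and Homo mice 3.37 ± 0.883 (n = 6 each). On the log2 scale Homo minus WT was 3.19 ± 0.67, Het minus WT 1.81 ± 0.67 and Homo minus Het 1.38 ± 0.65. Without mice 4 and 12 Homo minus WT was 4.12 ± 0.55 and Het minus WT 2.98 ± 0.56. The Het place was 0.57 on the log2 scale and 0.31 on the scale of mean CPM, so midway depends on the scale. In 9 of 26 alternatives Gm8909 was Het like Homo, and in 1, without mice 1 to 3, Homo only.

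Of 18 tested genes of the class I list, H2-T24 and Gm8909 were called in Homo against WT, both higher, and the median was 0.11. H2-T24 was at 8.15 ± 1.57 CPM in WT, 10.9 ± 1.56 in Het and 14.3 ± 1.40 in Homo, and WT mouse 12, at 11.7, was its highest WT mouse. H2-Bl, not called, had 6 to 142 counts in WT libraries and 183 to 271 in Homo, with the 142 in mouse 12. Gm10499, which overlaps Gm8909 on the map, and H2-T10, the next tested gene on that side, were at 3.82 ± 0.90 and 1.39 ± 0.38 in Homo minus WT on the log2 scale and were not called (adjusted p = 0.0669 and 0.123 with edgeR). The classical genes H2-K1 and H2-D1 were at 0.00 ± 0.06 and -0.04 ± 0.07.

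Dynlt1b, Tmem181b-ps and 9030025P20Rik lie below Pkd1, and Het was nearer to Homo than to WT in each on the log2 scale (places 0.59, 0.69 and 0.80). On the scale of mean CPM the places were 0.48, 0.57 and 0.74, so that Het of Dynlt1b was then nearer to WT. Tmem181b-ps is a transcribed pseudogene that overlaps the end of Dynlt1b on the map. It had 5 to 11 counts in 6 WT libraries and 19 in mouse 12, 13 to 22 in Het and 16 to 35 in Homo. Without mouse 12, which was picked from these values, every Het mouse exceeded every WT mouse. Het and Homo overlapped. Homo minus WT was 1.47 ± 0.32, Het minus WT 1.01 ± 0.32 and Homo minus Het 0.46 ± 0.32 on the log2 scale. Summed with Tmem181a and Tmem181c-ps, which share its sequence, levels were 2.95 ± 0.90 CPM in WT, 3.29 ± 0.65 in Het and 3.16 ± 0.85 in Homo, so the sum differed by less than the spread between mice.

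Dynlt1b had 12 to 27 counts in WT libraries, 37 to 66 in Homo, and in Het 61 in mouse 4 and 15 to 32 in the other 5. All Homo mice lay above all WT mice in CPM, and mouse 4 was the 1 Het mouse within the Homo range, at 1.92 CPM against 1.11 to 1.97. Homo minus WT was 1.38 ± 0.31 and Het minus WT 0.82 ± 0.32 on the log2 scale. Without mice 4 and 12 Het minus WT was 0.61 ± 0.28 and the Het place 0.40, and without Het replicate 1 alone the class was Homo only. Dynlt1a, which differs from it at a single coding base, was at -0.30 ± 0.43. The sum of the 4 copies was 1.03 ± 0.373, 1.38 ± 0.671 and 1.80 ± 0.243 CPM in WT, Het and Homo.

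9030025P20Rik, an unnamed protein-coding gene, had lowest, median and highest levels of 1.56, 2.62 and 3.86 CPM in WT, 2.75, 4.38 and 7.51 in Het and 4.20, 5.16 and 6.89 in Homo. The highest WT mouse was mouse 12 and the highest mouse of all was Het mouse 4. WT and Homo did not overlap, and 5 of 6 Het mice lay above all WT mice. Homo minus WT was 1.08 ± 0.22, Het minus WT 0.87 ± 0.23 and Homo minus Het 0.21 ± 0.23. Each of its 19 counts is a multiple of 7, as 137 of 14073 rows with a count above 50 share some divisor (0.973%). Divided by 7 the counts run from 8 to 34, and the precision is then that of the smaller numbers: Homo minus WT was 1.08 ± 0.27 and no longer called. The sum with Gm3435 and Ermard was 33.2 ± 4.89 CPM in WT, 38.9 ± 3.77 in Het and 39.7 ± 5.35 in Homo.

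**Figure D4:**
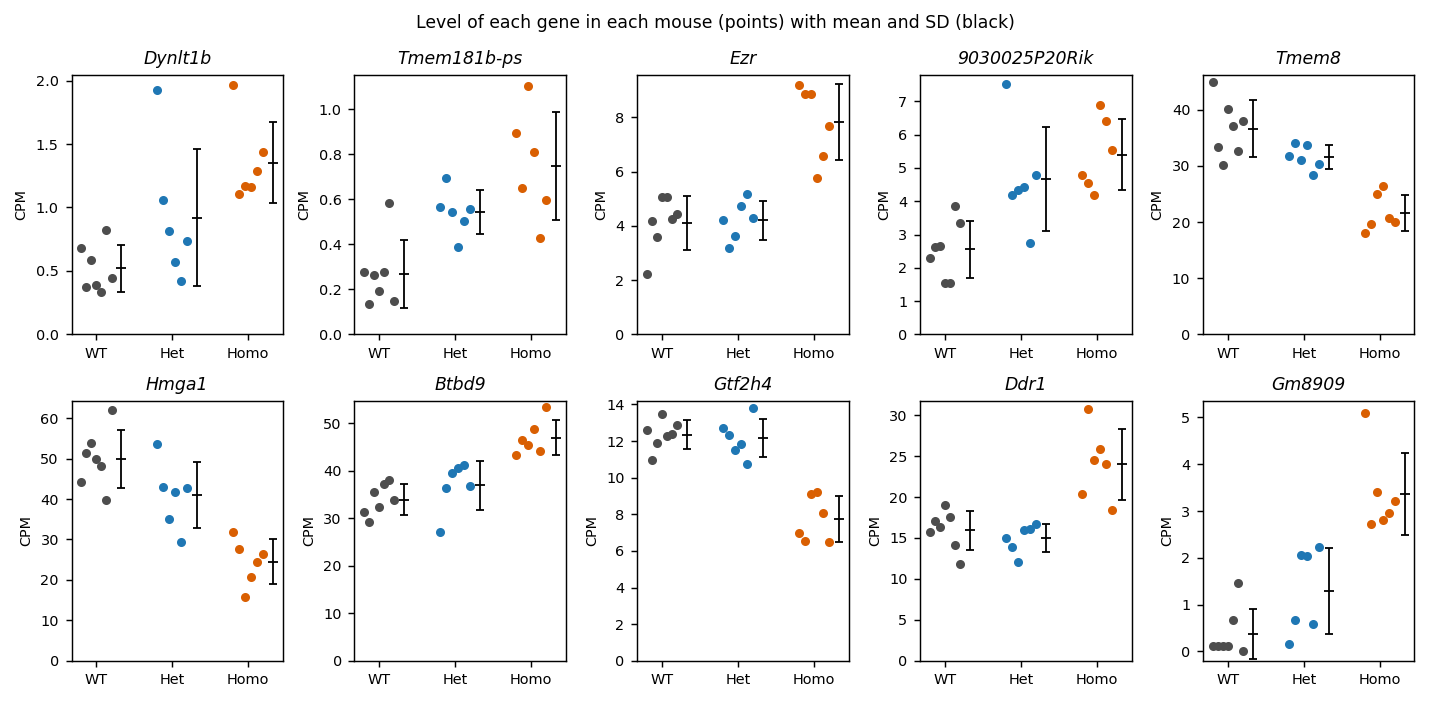
CPM of each of the 10 genes in each mouse by genotype, with mean and SD in black. In Gtf2h4, Ddr1 and Ezr the WT and Het mice share a range, and in Gm8909 the Het mice spread from 0.158 to 2.23 CPM.

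In Het against WT, 0 of the 10 genes were called by edgeR (0.0243% of tested genes were), with 5 at an unadjusted p under 0.05 and 1455 among all genes; DESeq2 and limma-voom also called 0 of the 10. Without mice 4 and 12 Gm8909 was called, among 18 genes called in all. In Homo against Het, Tmem8, Gtf2h4, Ddr1 and Ezr were called, 4 of 10 beside 0.182% of tested genes. The count was 1 without Het replicate 1, 2 or 3, Homo replicate 2, or mice 4 and 12 together. It was 2 without Het replicate 4 or 6 or Homo replicate 3 or 6. Calls over all tested genes were 30 with all mice, 9 to 13 in the former fits and 11 to 27 in the latter. With 1 mouse left out, the Homo against Het call was lost in 12 of 19 fits for Ezr and 9 for Tmem8. It was lost in 6 for Ddr1 and 0 for Gtf2h4. Among the 7 mice numbered 14 to 20 the count was 0, and 0 of 16313 tested genes were called. All 10 genes kept their direction there, but they were chosen on these same mice, so nothing is read from it. These comparisons share their Homo or WT mice.

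The difference of Het from the point between WT and Homo is nearly uncorrelated with Homo minus WT by design (-0.04), but not with Het minus WT (0.87) or Homo minus Het (-0.88), which may also have shaped the choice of genes. No gene was called off the midpoint by edgeR (0% of tested genes), with 940 of all genes and 3 of the 10, Gtf2h4, Ddr1 and Ezr, at an unadjusted p under 0.05. DESeq2 called 24 genes, none of the 10, and limma-voom 0. The estimates were 0.31 ± 0.08 for Gtf2h4, -0.39 ± 0.11 for Ddr1 and -0.43 ± 0.15 for Ezr. Hmga1 was at 0.23 ± 0.13, Tmem8 at 0.16 ± 0.09 and Btbd9 at -0.11 ± 0.08.

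Of the 52 genes called in Homo against WT on other chromosomes or without a position, 34 changed in Homo only, 3 were midway and 15 were Het like Homo by the same rule. By range, 8 of the 10 genes had Homo and WT mice that did not overlap, beside 0.911% of tested genes; the exceptions were Tmem181b-ps and Ddr1. For Homo and Het it was 6 (Ezr, Tmem8, Btbd9, Gtf2h4, Ddr1 and Gm8909), beside 0.686%, and for Het and WT 0, beside 0.194%. With all mice, none of the 10 genes thus separated every Het mouse from every WT mouse.

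Per kilobase of exon, WT levels ran from 23.5 CPM for Hmga1, 8.40 for Tmem8, 3.73 for Gtf2h4 and 3.34 for Ddr1 to 1.86 for Btbd9 and 1.25 for Ezr. Dynlt1b (0.674), 9030025P20Rik (0.639), Gm8909 (0.240) and Tmem181b-ps (0.0641) were the lowest. The spread between mice of a genotype, as SD of log2 CPM, was 0.16 for Gtf2h4 and Btbd9, 0.18 for Tmem8 and 0.22 for Ddr1, under the median of 0.27 over all genes, 0.29 for Hmga1 and 0.32 for Ezr. It was 0.42 to 0.51 for 9030025P20Rik, Tmem181b-ps and Dynlt1b, and 1.24 for Gm8909. The genes with the fewest counts thus had the widest spread.

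For each gene but Gm8909, the other gene with the most similar log2 CPM over the 19 mice was found by Pearson's r, as a description over mice that share their genotypes. For Tmem8 it was Atp6v0c (0.90), for Gtf2h4 Rnps1 (0.88), for Dynlt1b Acat2 (0.88), for Tmem181b-ps H2-T24 (0.87), for 9030025P20Rik Spaca6 (0.87) and for Hmga1 1600002H07Rik (0.83). All of these lie on chromosome 17. For Ezr it was Arhgef28 (0.91), for Ddr1 Ahnak (0.88) and for Btbd9 Rsbn1 (0.87), on chromosomes 13, 19 and 3.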

How the data were processed

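Liver RNA from 19 mice was sequenced with a NuGen Ovation kit, per the labels' protocols. Raw counts by gene symbol, as the authors deposited them in a single table, were used as they stand. The submitters' processing notes name STAR 2.7.2b, featureCounts 1.6.4 and the build GRCm38. Not given in the sources used here are the annotation, the strand setting and how multi-mapping reads were counted.

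Genotypes come from the labels, and each library was taken as 1 mouse from its numbered title. Counts were analysed in R 4.3.3 with edgeR 4.0.16: TMM, filterByExpr by genotype (16463 genes), 1 quasi-likelihood fit of all 19 libraries, Benjamini-Hochberg adjustment over all tested genes, called at 0.05, two-sided. Standard errors came from the fold change and the root of F, and log2 CPM used a prior count of 2. DESeq2 1.42.0, limma-voom (limma 3.58.1), RLE size factors in edgeR, no filter, mouse number as a covariate and leaving out mice were alternatives. Leaving out mice 4 and 12 together, keeping mice 8 to 13 or 14 to 20, and dividing the counts of 9030025P20Rik by 7 were chosen after seeing the data. The members and gene lists were chosen with earlier results of these data known. Named besides the members are called genes of the lists, neighbours and most similar genes; Krt19, H2-Bl and H2-T10 were named after their values were seen. Results on 2 other genes are not reported here.

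On simulated counts of 16463 genes, edgeR recovered 40.0% of genes planted at 1.5-fold and 78.0% at 2-fold for Homo against WT. Every pair of mice within a genotype differed by more than sampling noise (lowest chi-square over its degrees of freedom 21.6). Symbols of 27 rows had turned into dates, and these rows stayed in the totals (at most 0.174%). Positions (15874 of the tested genes matched) and promoters are RefSeq GRCm38.p6, and transcripts are GENCODE M21.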

Additional observations from a re-analysis of the deposited data

Results flagged for a closer look

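In 30 combinations of gene and genotype, 3 had a mouse far from the others of its group, by the gap to the nearest mouse relative to the whole range; chance gives about 1 in 20. Btbd9 was at 27.1 CPM in Het mouse 4, with the next lowest Het mouse at 36.4. Tmem181b-ps was at 0.582 CPM in WT mouse 12, with the next WT mouse at 0.278. Gm8909 was at 5.09 CPM in Homo mouse 8, with the next Homo mouse at 3.41. Mice 4 and 12 are those that stood apart at other genes of the chromosome, and mouse 8 is not; the cause was not tested.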

How the results depend on the processing

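No paired analysis was possible because the mouse numbers all differ and the labels give no other pairing. Over the fits that each left out 1 mouse, the count of the 10 genes called ranged from 4 to 10 in Homo against WT. It ranged from 1 to 5 in Homo against Het, and the number classed midway from 0 to 3. Over all tested genes these fits called 35 to 122 genes in Homo against WT and 9 to 34 in Homo against Het. In Homo against WT the count was 4 (of 38 called genes) once mouse number entered as a covariate. It was 3 (of 25) without mice 1 to 3 and 0 (of 2) in mice 8 to 13. In Homo against Het it was 0 in mice 14 to 20, where no tested gene was called. Without mice 4 and 12, 1 of the 10 genes was called in Het against WT (of 18) and 1 in Homo against Het (of 11). Then 5 were classed midway and 3 Homo only. Without mice 1 to 3, 1 was midway.

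Of the log2 differences near 0, Het minus WT of Gtf2h4 (range -0.0624 to 0.00864 when 1 mouse was left out) turned to 0.00864 without Het replicate 5, and that of Ezr (range -0.0706 to 0.106) to -0.0498 with the covariate, -0.157 once mice 1 to 3 were left out, -0.0706 without WT replicate 1 and -0.0334 without Het replicate 5. The distance of Het from the midpoint turned for Dynlt1b (range -0.221 to 0.281) to -0.0403 with limma-voom, -0.221 without Het replicate 1 and -0.149 without mice 4 and 12, and for Gm8909 (range -0.0243 to 0.684) to -0.0869 without mice 1 to 3 and -0.0243 without Het replicate 6. The cause was not tested. Homo minus WT of all 10 genes kept its direction in every alternative run. The genes were chosen on these differences in the same mice, so nothing is read from that. Depth limits Tmem181b-ps, Dynlt1b and Gm8909 most, with as few as 5, 12 and 0 counts in a library.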
